A study of Coturnix japonica with 144 samples.

Results

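EGR1 (ENSCJPG00005020865) and EGR4 (ENSCJPG00005007745) are the members of the early growth response family described here, 2 genes of the 21561 in a table of read counts from Japanese quail brain. They were taken by identifier, with earlier results of these data known. The study lists both among the genes that changed in these birds, so their differences by treatment and class here are not independent evidence. It also tested expression against the duration of brooding and found genes in the hypothalamus that correlated with it. The labels give classes and no durations, so that test was not repeated here. Each was read in all 144 libraries, 48 each from the hypothalamus, the nucleus taeniae (Tn), a part of the avian amygdala, and the stria terminalis' bed nucleus (BnST). The libraries came from 48 adult birds, 1 of each region per bird. The birds were virgin and kept on short days, so both sexes were reproductively quiescent. Sensitized birds (13 males, 11 females) were shut overnight in a box with a pair of chicks, and control birds (8 males, 16 females) were shut in the same kind of box alone. All birds of both treatments then met unfamiliar chicks shortly before the brain was taken, so no group gives a level without chicks. Each region was punched out of frozen sections, and one library pools all the cells of a punch.

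The labels also give a response class without a key. R (17 birds) and NR (6) occur only among sensitized birds, and S (5) and NS (17) only among controls. The letters are read here as birds that did and did not respond to the chicks, with R and S the responding classes. The study describes brooding in more of the control birds than the labels put in S. It counts 3 of 8 control males that brooded for at least a few seconds. The labels put 1 control male in S and the other 7 in NS, so on that count the NS class holds males that brooded. Values of S, NS and the 2 pooled classes are limited by this reading. For 3 birds the class is not available, namely 2 control females and 1 sensitized male, and these were left out of the comparisons of classes.

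EGR1 and EGR4 encode zinc finger transcription factors of one family that bind the same kind of GC-rich DNA element. Both are immediate early genes: in resting neurons their transcripts are scarce, and synaptic activity brings them up within minutes, through kinases that act on serum response factor and CREB, without any new protein being made first. EGR1, known as ZENK in songbird work, is widely used with FOS to map which brain regions were active during a behaviour. EGR4 is expressed mainly in neurons and can repress its own promoter and that of other targets.

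Library totals ran from 9664414 to 19640873 counts, with a median of 12636688. The 2 genes were well above the filter on low counts in every library. The fewest reads were 1805 for EGR1 and 100 for EGR4, both in hypothalamus libraries of sensitized birds. Levels are given as CPM, counts brought to a common library total, with the totals scaled by TMM, a normalization that matches the bulk of genes between libraries. CPM is not divided by transcript length, so the level of one gene is not set against that of the other. 1 library and 1 bird stood apart. The BnST library of bird 49, an R male, had a first principal component score of 90.3, where the bird after it had 39.4. Bird 17, labelled an R male, lay at the level of females in all 3 regions on 199 genes that are higher in males (4.67 in the hypothalamus as a mean log2 CPM, against 5.35 for the next male and 4.74 for the highest female). Markers of neurons, glia and blood, and of the 3 regions, were not analysed here, because the identifiers could not be paired with their names.

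Both genes were highest in the BnST and lowest in the hypothalamus. Mean EGR1 was 217 ± 44.5 CPM for the hypothalamus, 453 ± 176 CPM for the BnST and 303 ± 83.1 CPM for the Tn (SD, n = 48 birds each). Hypothalamus libraries ran from 126 to 334 CPM with a median of 215, BnST libraries from 204 to 905 CPM with a median of 403, and Tn libraries from 199.7 to 605 CPM with a median of 286. The ranges overlapped, but within single birds the order was regular: EGR1 was lower in the hypothalamus than in the BnST in 47 of 48 birds, and the whole order BnST, Tn, hypothalamus held in 36. Mean EGR4 was 22.1 ± 9.53 CPM for the hypothalamus, 60.9 ± 37.6 CPM for the BnST and 31.6 ± 9.99 CPM for the Tn (SD, n = 48 birds each). Hypothalamus libraries ran from 6.48 to 46.9 CPM, BnST libraries from 14.8 to 200.4 CPM and Tn libraries from 15.4 to 69.6 CPM, and the medians were 21.4, 52.7 and 31.1 CPM in that order. EGR4 was lower in the hypothalamus than in the BnST in 46 of 48 birds, and the full order held in 35.

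Each step in this order passed the test for both genes. The model took the libraries of a bird as independent. With the bird as a replicate block, hypothalamus minus BnST was −1 for EGR1 (edgeR, adjusted p = 3.54e-24) and −1.4 for EGR4 (edgeR, adjusted p = 2.65e-19), and the other steps passed too. The values that follow are without this block. Hypothalamus minus BnST was −1.06 on the log2 scale for EGR1 (standard error 0.0848, quasi-likelihood F test of edgeR, adjusted by Benjamini-Hochberg over all genes, adjusted p = 4.77e-23) and −1.46 for EGR4 (standard error 0.134, adjusted p = 3.81e-19). Hypothalamus minus Tn was −0.48 for EGR1 (edgeR, adjusted p = 2.20e-07) and −0.52 for EGR4 (edgeR, adjusted p = 3.47e-04). BnST minus Tn was 0.58 for EGR1 (edgeR, adjusted p = 7.96e-10) and 0.95 for EGR4 (edgeR, adjusted p = 2.16e-10). Differences of this kind were common between these tissues: 59.4% of the genes tested passed the same threshold, an adjusted p under 0.05, in the first of these comparisons, 68.3% in the second and 61.7% in the third. In bulk tissue, fewer cells that express a gene and less RNA per cell cannot be told apart.

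**Figure D1:**
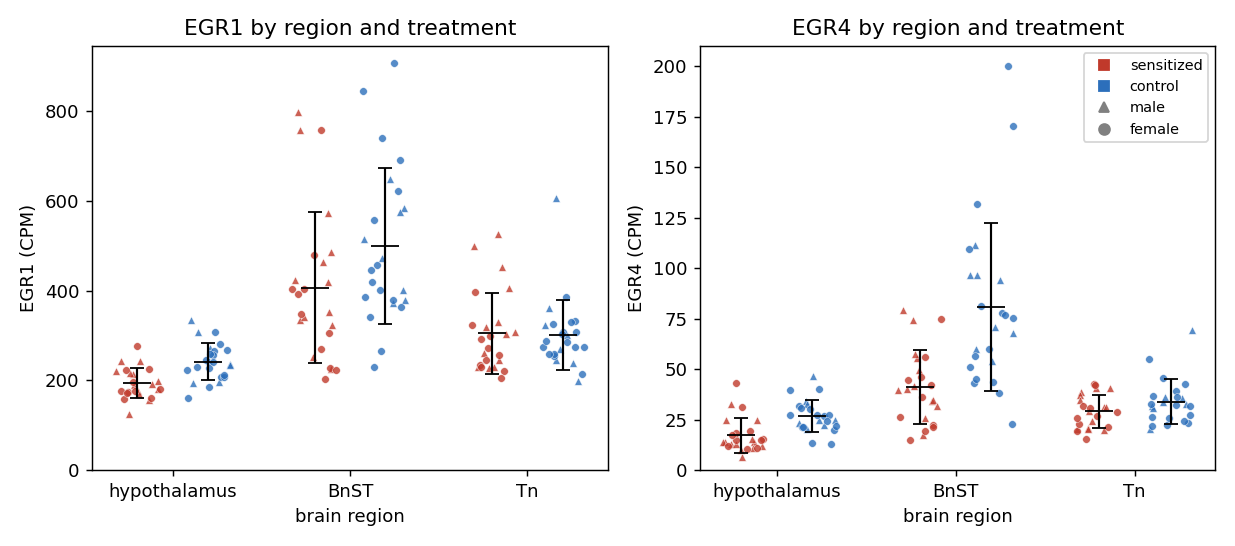
EGR1 (left) and EGR4 (right) in CPM on linear axes from 0, for each of the 48 birds in the hypothalamus, BnST and Tn, with sensitized birds in red left of control birds in blue, triangles for males and circles for females. Black bars give the mean and SD of each group of 24 birds. EGR4 in the BnST averaged 41.1 CPM in sensitized birds and 80.7 CPM in controls, while EGR1 in the Tn averaged 304 CPM in sensitized birds and 301 CPM in controls.

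The birds differed from each other in both genes more than in most genes, and more in EGR4 than in EGR1. The biological coefficient of variation is the variation left between birds of one sex and treatment after counting error is taken off. For EGR4 it was 36.1% (hypothalamus), 45.7% (BnST) and 28.6% (Tn). That placed EGR4 above 91.4%, 92.4% and 79.8% of the genes tested. EGR1 varied less, with 16.7%, 35.9% and 23.99% in the same order, above 60.3%, 86.15% and 72.6% of the genes tested. The median gene had 14.2%, 17.8% and 15.3%.

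EGR4 was lower after sensitization in the BnST, which the study reports too. It ran from 14.8 to 79.5 CPM with a median of 40.03 in sensitized birds, and from 22.7 to 200.4 CPM with a median of 73.2 in controls. The groups overlapped, but 21 of 24 sensitized birds lay below the control median and 9 controls lay above the highest sensitized bird. The means were 41.1 ± 18.2 CPM in sensitized and 80.7 ± 41.7 CPM in control birds (SD, n = 24 each), a log2 fold change of −0.97 (standard error 0.193, edgeR, adjusted p = 0.0241). Only 0.0556% of the genes tested passed in this comparison, 8 of 14384. EGR1 in the same libraries was at 407 ± 169 CPM in sensitized birds and 500.0 ± 174 CPM in controls (SD, n = 24 each), and its log2 difference of −0.29 did not pass (standard error 0.150, unadjusted p = 0.0562 and adjusted p = 0.781 by edgeR).

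In the hypothalamus both genes were lower in sensitized birds by amounts that missed the threshold in edgeR. EGR1 ran from 126 to 276 CPM with a median of 186 in sensitized birds and from 162 to 334 CPM with a median of 239 in controls. For EGR4 the sensitized birds ran from 6.48 to 43.05 CPM with a median of 14.5, and the controls from 13.2 to 46.9 CPM with a median of 25.8. For each gene 21 of 24 sensitized birds lay below the control median. The log2 fold change was −0.32 for EGR1 (standard error 0.0687, edgeR, adjusted p = 0.0877) and −0.64 for EGR4 (standard error 0.153, edgeR, adjusted p = 0.196), where 0.0207% of the genes tested passed. These calls depended on the tool. With the DESeq2 likelihood ratio test the adjusted p was 0.0193 for EGR1 and 0.0342 for EGR4. That is the test the study used for treatment, and the study reports EGR4 as down-regulated in the hypothalamus. With limma-voom the adjusted p was 0.0645 for EGR1, which did not pass, and 0.0355 for EGR4.

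The Tn showed little difference between treatments. EGR1 averaged 304 ± 89.4 CPM in sensitized birds and 301 ± 78.2 CPM in controls (SD, n = 24 each), a log2 difference of 0.02 (standard error 0.103, edgeR, adjusted p = 0.995). EGR4 averaged 29.1 ± 8.27 CPM in sensitized birds and 34.02 ± 11.1 CPM in controls (SD, n = 24 each), a log2 difference of −0.22 (standard error 0.120, edgeR, adjusted p = 0.939). No gene passed in the Tn with edgeR (0.0% of 14242), DESeq2 or limma-voom, and 678 had an unadjusted p under 0.05 in edgeR. The size of the treatment difference was then compared between regions in one edgeR model of all 144 libraries, with the libraries of a bird taken as independent. The widest gap was that of EGR4 between the BnST and the Tn (−0.74, standard error 0.226, unadjusted p = 0.00123), and its adjusted p was 1 by edgeR. No gene passed in any of these 3 comparisons with edgeR (0.0% of 15131) or limma-voom, where 236, 195 and 370 genes had an unadjusted p under 0.05. A treatment difference confined to some regions was therefore not shown for either gene.

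Both sexes had lower mean values of both genes after sensitization in the hypothalamus and the BnST. Fitted by sex, the log2 differences for the hypothalamus were −0.38 in males and −0.28 in females for EGR1, and −0.86 and −0.45 for EGR4. In the BnST they were −0.15 in males (standard error 0.233) and −0.46 in females for EGR1, and −0.86 and −1.12 for EGR4. None of these passed, the lowest adjusted p being 0.279 by edgeR for EGR4 in the BnST of females. Permutation tests were also run on the 2 genes alone, which the study had already listed as changed in these birds. Their p are not adjusted over the genome or for that choice, so they do not make up for the fits that missed the threshold. In the hypothalamus they gave p of 0.00543 in males (exact) and 0.00506 in females for EGR1, and 0.00146 (exact) and 0.0183 for EGR4. For BnST libraries these permutation p were 0.294 in males (exact) and 0.0494 in females for EGR1, and 0.00106 (exact) and 0.00207 for EGR4. Of all genes tested in males and in females, 0.00665% and 0.0133% passed for hypothalamus libraries, 0.0% and 0.00668% for BnST libraries, and 0.0% of both for Tn libraries. The difference between the sexes in the treatment effect did not pass for either gene, for example at −0.41 for EGR4 in the hypothalamus (standard error 0.315, edgeR, adjusted p = 1) and 0.27 in the BnST (standard error 0.401, edgeR, adjusted p = 1). No gene passed for this difference with edgeR (0.0%) or DESeq2, and 502, 605 and 456 had an unadjusted p under 0.05 by edgeR in hypothalamus, BnST and Tn libraries. Bird numbers fall into a run of 1 to 20 and a run of 21 to 50, which the labels do not call batches. Within these runs the log2 difference of EGR4 was −0.95 and −0.45 for hypothalamus libraries and −0.89 and −1.01 for BnST libraries. That of EGR1 in the Tn had opposite signs, 0.15 and −0.14.

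Neither gene differed between males and females past the threshold in any region. The widest difference was that of EGR1 in the Tn, at 328 ± 110.4 CPM in males (n = 21) and 283 ± 47.2 CPM in females (n = 27), a log2 difference of 0.22 with treatment held (standard error 0.103, edgeR, unadjusted p = 0.0363, adjusted p = 0.414). EGR4 in the same libraries averaged 32.5 ± 11.01 CPM in males and 30.9 ± 9.28 CPM in females (SD). In these comparisons 4.14% of genes passed in the Tn, 5.12% in hypothalamus libraries and 3.73% in BnST libraries.

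R and NS birds differed in both genes in the hypothalamus. EGR4 in R birds ran from 6.48 to 32.9 CPM with a median of 14.1, and in NS birds from 20.3 to 46.9 CPM with a median of 27.5. The classes hardly overlapped: 16 of 17 R birds lay below the lowest NS bird, and the remaining one, male bird 46, was at 32.9 CPM. EGR1 in R birds ran from 126 to 243 CPM with a median of 176, and in NS birds from 185 to 334 CPM with a median of 234. Here 12 of 17 R birds lay below the lowest NS bird, and bird 46 was again the highest of its class. R minus NS was −1.06 for EGR4 (standard error 0.156, edgeR, adjusted p = 9.54e-05) and −0.44 for EGR1 (standard error 0.0735, edgeR, adjusted p = 8.83e-04). In that comparison 11 of 15264 genes passed (0.0721%). Both calls held without bird 17, which had the lowest value of each gene (−1.01 for EGR4 and −0.42 for EGR1). With the run of bird numbers as a covariate R minus NS was −0.94 for EGR4 (edgeR, adjusted p = 5.1e-04) and −0.45 for EGR1 (edgeR, adjusted p = 0.00181). Since all R birds were sensitized and all NS birds were controls, class and treatment cannot be told apart in it.

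**Figure D2:**
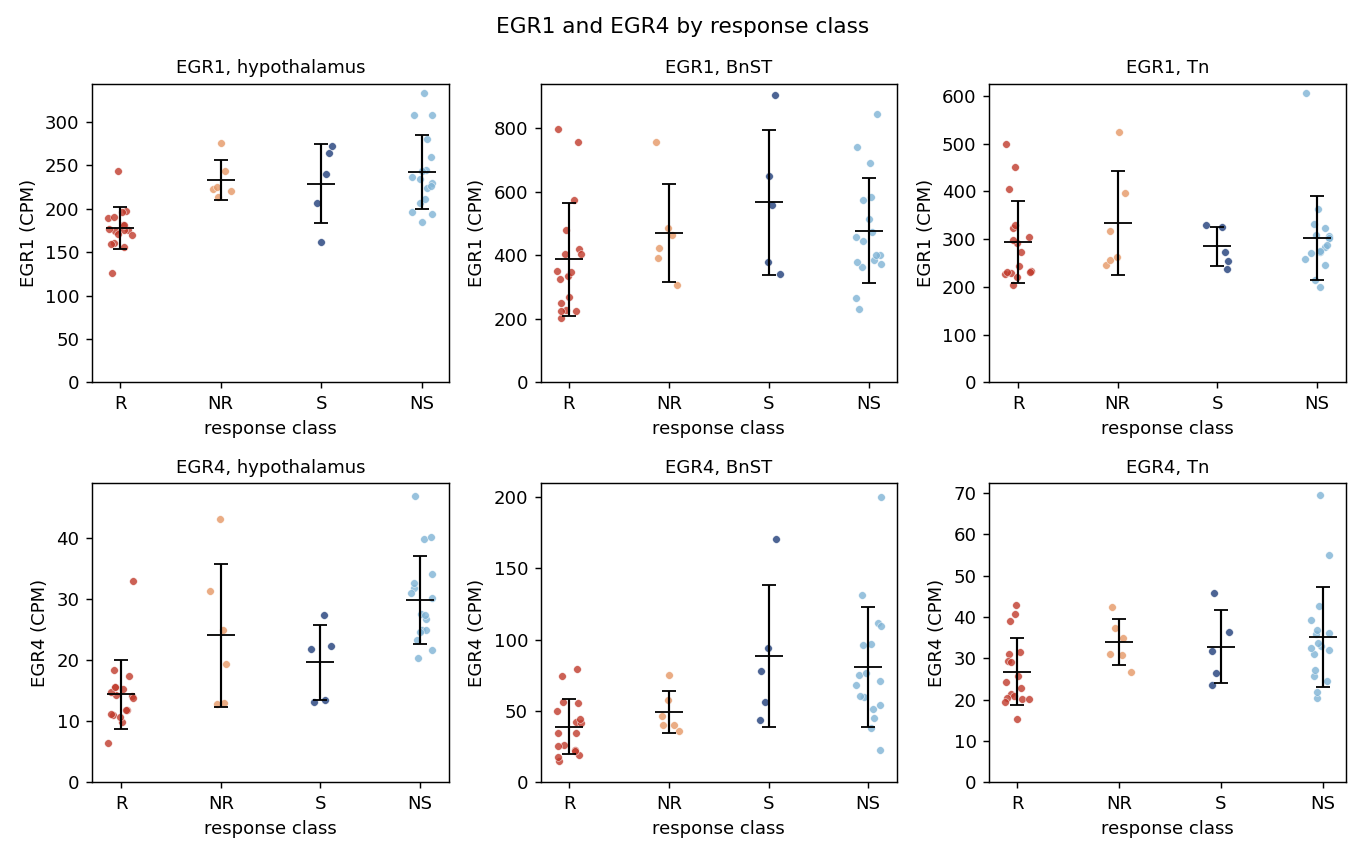
EGR1 (top row) and EGR4 (bottom row) in CPM on linear axes from 0, by response class, in the hypothalamus, BnST and Tn. Each point is a bird, black bars are the mean and SD, and the classes hold 17 R, 6 NR, 5 S and 17 NS birds. In the hypothalamus EGR4 averaged 14.4 CPM in R, 24.1 CPM in NR, 19.6 CPM in S and 29.9 CPM in NS birds.

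R and NR birds were all sensitized, and their comparison missed the threshold for both genes. EGR1 in the 6 NR birds of the hypothalamus was at 213, 220.3, 223, 225, 244 and 276 CPM, so that 16 of 17 R birds, with bird 46 the exception, lay below the lowest NR bird. EGR4 in the same NR birds was at 12.8, 12.95, 19.4, 24.97, 31.3 and 43.05 CPM, and 7 of 17 R birds lay below all of these. R minus NR was −0.39 for EGR1 (standard error 0.0995, edgeR, unadjusted p = 3.30e-04, adjusted p = 0.560) and −0.75 for EGR4 (standard error 0.207, edgeR, unadjusted p = 7.94e-04, adjusted p = 0.652). No gene passed with edgeR (0.0%) or DESeq2, and 810 had an unadjusted p under 0.05 by edgeR. The NR birds and the NS controls were close in EGR1, with a difference of −0.06 (standard error 0.102, edgeR, adjusted p = 0.998), and their difference in EGR4 was −0.31 (standard error 0.215, edgeR, adjusted p = 0.998), also with 0.0% of genes passing by edgeR, none by DESeq2 and 577 at an unadjusted p under 0.05 by edgeR. R minus S was −0.37 for EGR1 (edgeR, adjusted p = 0.319) and −0.46 for EGR4 (edgeR, adjusted p = 0.409), where 0.00655% of genes passed.

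S and NS birds were all controls, and their comparison missed the threshold too. EGR1 was at 162, 206, 240.3, 265 and 272 CPM in the S birds, against a median of 234 CPM in NS birds, and EGR4 was at 13.2, 13.5, 21.9, 22.4 and 27.3 CPM, each below the NS median of 27.5 CPM. Bird 32, a female, had the lowest S value of both genes. S minus NS was −0.08 for EGR1 (standard error 0.109, edgeR, adjusted p = 0.741) and −0.60 for EGR4 (standard error 0.236, edgeR, unadjusted p = 0.0144, adjusted p = 0.162), with 0.0% of genes passing in edgeR, 107 genes in DESeq2 and 2925 at an unadjusted p under 0.05 in edgeR. The contrast of the 2 class differences, R minus NR less S minus NS, was −0.31 for EGR1 (unadjusted p = 0.0410, edgeR, adjusted p = 0.402) and −0.15 for EGR4 (edgeR, adjusted p = 0.874), again with 0.0% of genes passing in edgeR, 1 gene in DESeq2 and 1861 at an unadjusted p under 0.05 in edgeR.

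A model with both terms split the difference between class and treatment. In the hypothalamus the EGR4 difference of R or S minus NR or NS birds was −0.68 with treatment held (standard error 0.154, edgeR, adjusted p = 0.0944), and that of sensitized minus control birds was −0.37 with class held (standard error 0.154, edgeR, adjusted p = 0.986). For EGR1 the terms were −0.25 (standard error 0.0747, edgeR, adjusted p = 0.256) and −0.20 (standard error 0.0747, edgeR, adjusted p = 0.986). Each comparison called 0.0138% of genes, and neither term of either gene passed. Without treatment in the model the class difference passed for both, at −0.87 for EGR4 (edgeR, adjusted p = 0.00130) and −0.34 for EGR1 (edgeR, adjusted p = 0.0303). With treatment in it, DESeq2 called EGR4 (adjusted p = 0.0195).

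The classes were compared in the BnST in the same way. EGR4 averaged 38.9 ± 19.4 CPM in R birds and 49.1 ± 14.7 CPM in NR birds, against 88.6 ± 49.6 CPM in S birds and 80.6 ± 42.1 CPM in NS birds (SD, n = 17, 6, 5 and 17). Both classes of sensitized birds were thus below both classes of controls in their mean, and the term for treatment with class held was −0.94 (standard error 0.226, edgeR, adjusted p = 0.328) while that for class was −0.11 (standard error 0.226, edgeR, adjusted p = 1). No gene passed in either of these with edgeR (0.0%), where 399 and 286 had an unadjusted p under 0.05 and DESeq2 called 2 and 0. R minus NS was −1.05 for EGR4 (standard error 0.234, edgeR, adjusted p = 0.187) with 0.0132% of genes passing, and DESeq2 gave an adjusted p of 0.0497. R minus S was −1.18 (standard error 0.322, edgeR, unadjusted p = 6.36e-04, adjusted p = 0.684). EGR1 in the BnST averaged 388 ± 177 CPM in R, 471 ± 154 CPM in NR, 567 ± 228 CPM in S and 478 ± 165 CPM in NS birds (SD), and no class difference of EGR1 passed. Between R and NR birds, where 0.00659% of genes passed, the log2 differences were −0.28 for EGR1 and −0.33 for EGR4. In the Tn no class difference of either gene passed, the widest being R minus NS of EGR4 (26.7 ± 8.10 CPM in R and 35.1 ± 12.1 CPM in NS birds, SD, n = 17 each, log2 difference −0.40, edgeR, adjusted p = 0.733). Of all genes in the Tn, 0.0% passed in that comparison with edgeR, 3 genes with DESeq2, and 765 had an unadjusted p under 0.05 by edgeR.

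EGR1 and EGR4 followed each other from bird to bird in every region. Across the 48 birds Pearson's r of the log2 levels was 0.796 for the hypothalamus, 0.904 for the BnST and 0.688 for the Tn, and Spearman's rho was 0.741, 0.883 and 0.729. The permutation p was 1e-05 for each (two-sided, the smallest that 100000 resamples can give), and 3e-05 after adjustment over 9 relations. Without the 2 birds farthest from the median of EGR1, r was 0.737, 0.886 and 0.641. The relation was present within each treatment, with r of 0.751 in sensitized and 0.663 in control birds for the hypothalamus, 0.944 and 0.938 for the BnST, and 0.703 and 0.732 for the Tn. The rho was 0.538 in sensitized and 0.486 in control birds for hypothalamus libraries, 0.922 and 0.917 for BnST libraries, and 0.777 and 0.689 for Tn libraries. Among the 17 R birds of the hypothalamus r was 0.713 (permutation p = 0.00510) but rho was 0.252 (permutation p = 0.326). Both genes share the depth and composition of each library.

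**Figure D3:**
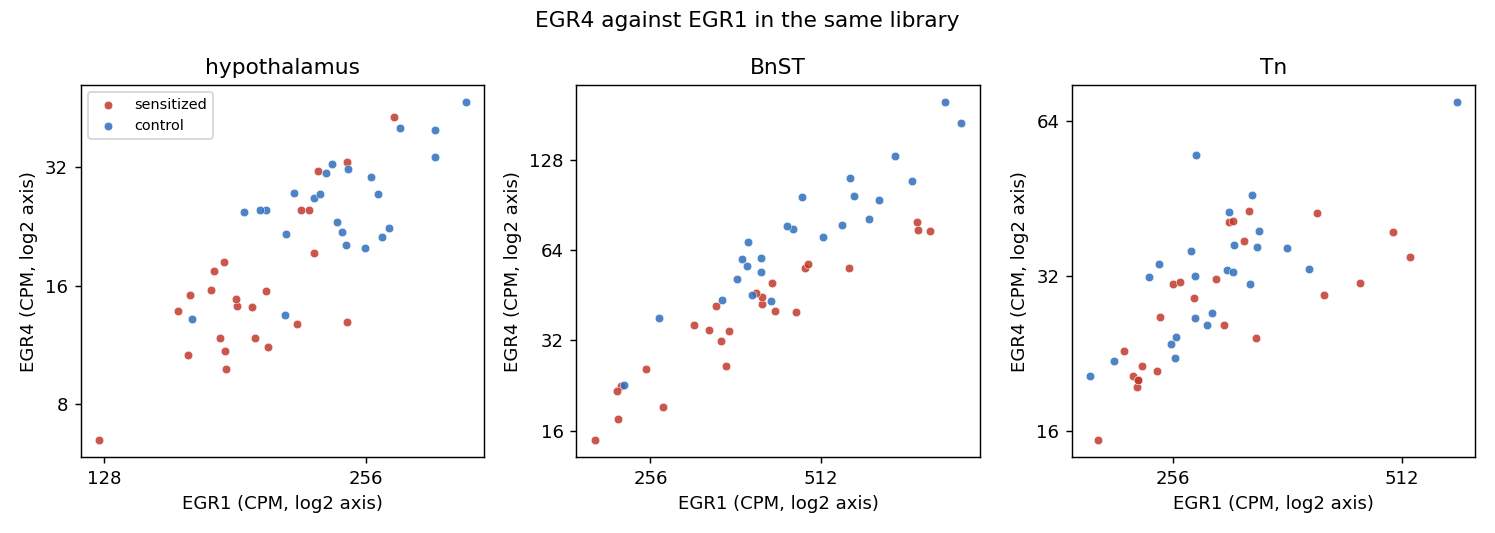
EGR4 against EGR1 in the same library, in CPM on log2 axes, for the 24 sensitized birds (red) and the 24 control birds (blue) of each region. In the BnST the points of each treatment lie along a band, with r of 0.944 in sensitized and 0.938 in control birds, and sensitized birds have less EGR4 relative to EGR1.

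Relative to EGR1, sensitized birds had less EGR4 in the BnST. The log2 of EGR4 minus that of EGR1 was −3.33 ± 0.230 in sensitized birds and −2.71 ± 0.299 in controls (SD, n = 24 each), and all 24 sensitized birds lay below the control median. The ranges still overlapped, with −3.80 to −3.00 in sensitized and −3.34 to −2.08 in control birds. The difference of −0.62 had a permutation p of 1e-05 (two-sided, the smallest possible), or 6e-05 adjusted over 6 comparisons of this ratio. In the hypothalamus the ratio was −3.59 ± 0.456 in sensitized and −3.19 ± 0.328 in control birds (difference −0.39, permutation p = 0.00154, adjusted p = 0.00231), with 21 of 24 sensitized birds below the control median. In the Tn it was −3.38 ± 0.311 in sensitized and −3.16 ± 0.286 in control birds (difference −0.22, permutation p = 0.0139, adjusted p = 0.0159), with 16 of 24 below. The ratio holds the lengths of both transcripts, so only its difference between groups can be read, and a lower ratio says that the log2 change of the 2 genes was unequal. It was not adjusted for the slope of EGR4 on EGR1, so it does not compare birds at equal EGR1. The study had called EGR4 lower in the BnST of these birds and had not called EGR1 there. A lower ratio in the BnST was thus largely implied before the test. The p of the ratio, here and below by class and by run, are not adjusted for that choice of genes and are not independent evidence.

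By class with both treatments pooled, the ratio was lower in R or S birds in each region. In the hypothalamus R or S birds had −3.66 ± 0.343 (n = 22) and NR or NS birds −3.13 ± 0.387 (n = 23), a difference of −0.53 (SD, permutation p = 4e-05, adjusted p = 1.2e-04), with 21 of 22 below the median of the others. The same difference was −0.41 for the BnST (permutation p = 7.5e-04, adjusted p = 0.00150) and −0.22 for the Tn (permutation p = 0.0159, adjusted p = 0.0159). Since 17 of the 22 R or S birds were sensitized and 17 of the 23 others were controls, these class values share most of their birds with the treatment values. A class difference of the ratio with treatment held was not tested. Fitted gene by gene with treatment held, the BnST class terms were −0.11 for EGR4 and −0.03 for EGR1. The treatment terms there with class held were −0.94 and −0.27. For hypothalamus libraries the class terms were −0.68 and −0.25, and the treatment terms −0.37 and −0.20. None of these terms passed in edgeR.

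The ratio also differed between the 2 runs of bird numbers, over which the classes were spread unevenly. Birds 1 to 20 hold 12 R or S and 5 NR or NS birds, and birds 21 to 50 hold 10 and 18. For hypothalamus libraries EGR4 averaged 16.7 CPM in the first run (n = 19) and 25.6 CPM in the second (n = 29), while EGR1 averaged 213 and 221 CPM, and the ratio was −3.74 and −3.17. With the run held and the labels permuted within runs, a choice made after seeing the data, the class difference of the ratio was −0.38 for hypothalamus (permutation p = 3.1e-04, adjusted p = 9.3e-04), −0.39 for BnST (permutation p = 0.00203, adjusted p = 0.00304) and −0.19 for Tn libraries (permutation p = 0.0485, adjusted p = 0.0485). Within the runs the class difference in the hypothalamus was −0.28 in birds 1 to 20 (exact permutation p = 0.193) and −0.44 in birds 21 to 50 (permutation p = 1.6e-04). In the same order it was −0.286 and −0.441 for BnST libraries (exact permutation p = 0.203 and permutation p = 0.00398). For Tn libraries it was −0.0814 and −0.252 (exact permutation p = 0.669 and permutation p = 0.0193). The treatment difference with the run held was −0.33 for hypothalamus, −0.61 for BnST and −0.2 for Tn libraries (permutation, adjusted p = 0.00114, 6e-05 and 0.0277). Its values within the runs were −0.50 and −0.22 for hypothalamus libraries (exact permutation p = 0.00201 and permutation p = 0.0670). For BnST libraries they were −0.594 and −0.616 (exact permutation p = 1.46e-04 and permutation p = 1e-05). For Tn libraries they were −0.282 and −0.145 (exact permutation p = 0.0652 and permutation p = 0.183).

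**Figure D4:**
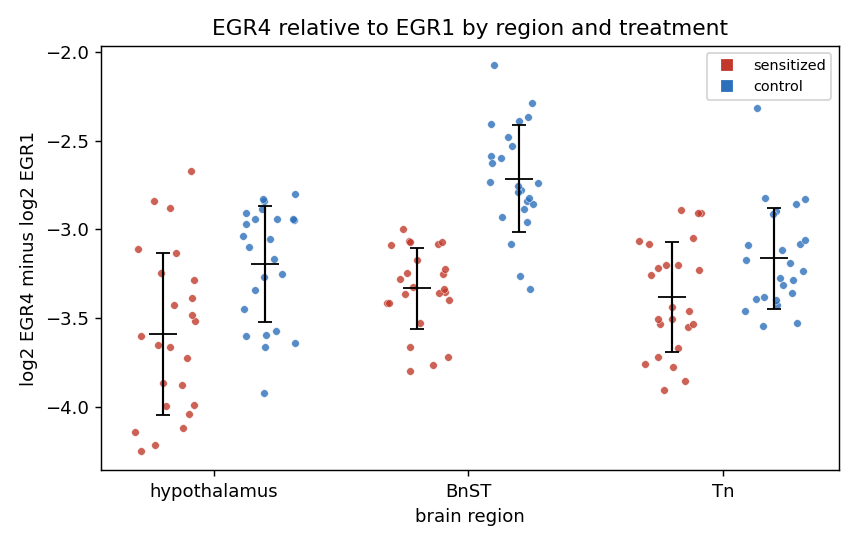
Log2 of EGR4 minus log2 of EGR1 in each library, with sensitized birds in red left of control birds in blue, in the hypothalamus, BnST and Tn. Black bars are the mean and SD of 24 birds. The sensitized mean lies below the control mean by 0.39, 0.62 and 0.22 in that order of regions, and in the BnST all 24 sensitized birds lie below the control median of −2.75.

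The level of a gene in one region told little about its level in another region of the same bird. For EGR1, r was 0.365 between hypothalamus and BnST (rho 0.420), 0.338 between hypothalamus and Tn (rho 0.394) and 0.347 between BnST and Tn (rho 0.334), with permutation p of 0.0112, 0.0188 and 0.0155, and adjusted p of 0.0202, 0.0242 and 0.0232. Without the 2 birds farthest from the median, r was 0.390, 0.298 and 0.351. Some values within groups were higher and others lower. In the same order, r of EGR1 was 0.31, 0.569 and 0.113 in controls, and 0.2, 0.273 and 0.546 in sensitized birds. By run, r of EGR1 between hypothalamus and Tn was 0.29 in birds 1 to 20 and 0.572 in birds 21 to 50. For EGR4, r was 0.295 between hypothalamus and BnST (rho 0.304, permutation p = 0.0412, adjusted p = 0.0463), and it was −0.024 once the means of sex and treatment were taken off (adjusted p = 0.961). The corresponding r of EGR4 was 0.378 between hypothalamus and Tn (rho 0.354, permutation p = 0.00796, adjusted p = 0.0179) and 0.175 between BnST and Tn (rho 0.155, permutation p = 0.233, adjusted p = 0.233). Without the 2 farthest birds these 3 values for EGR4 were 0.307, 0.331 and 0.199.

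Some of the other immediate early genes were among those whose levels ran most like the pair, and others were far down the order. The likeness is Pearson's r across 48 birds with the means of sex and treatment taken off, given as a description. In the hypothalamus NPAS4, a neuronal activity-dependent transcription factor, stood first of 14490 genes for EGR4 (r = 0.918), and BTG2, an antiproliferative immediate early gene, stood at rank 4 (r = 0.814). For EGR1 the first there was an unnamed long noncoding RNA, ENSCJPG00005007063 (r = 0.854), followed by RRAD, a small GTPase that inhibits calcium channels (r = 0.818), and FOSB, an AP-1 subunit (r = 0.814), while EGR4 came at rank 16. In the BnST EGR1 stood first of 14383 genes for EGR4 and EGR4 second for EGR1 (r = 0.938). There the AP-1 subunit JUN was at rank 9 for EGR4 (r = 0.909) and at rank 53 for EGR1 (r = 0.884). High r was common in these libraries, where BTG2 at rank 427 for EGR1 still had r = 0.727. KLF2 was far down the BnST order, at rank 2902 for EGR4 (r = 0.26) and rank 3009 for EGR1 (r = 0.28), and so was SIK1, at rank 2269 (r = 0.32) and rank 1957 (r = 0.40). In the Tn NPAS4 was again first for EGR4 (r = 0.782, of 14241 genes), with EGR1 at rank 5 (r = 0.718), and FOSB was at rank 3 for EGR1 (r = 0.840). Among the genes far down the order for hypothalamus libraries, NR4A3, an orphan nuclear receptor, was at rank 3346 for EGR4 (r = 0.241) but at rank 8 for EGR1 (r = 0.764), and SIK1 was at rank 8955 for EGR4 (r = −0.08). JUN was at rank 1646 there for EGR1 (r = 0.271). KLF2, a Krüppel-like transcription factor, had negative r with both genes in the Tn (−0.17 each). Of the 5 nearest genes of each member in each region, those not named here carry identifiers that could not be paired with a symbol.

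Of 20 other immediate early genes, 7 could be paired with an identifier, namely FOS, FOSB, JUN, NPAS4, NR4A3, KLF2 and BTG2. Of 22 activity-induced effectors and feedback genes 2 could, SIK1 and RRAD. EGR1 and EGR4 were the only ones of 7 genes of the EGR family and its corepressors that could, and none of 16 regulators of EGR transcription was paired. The pairs come from the study's own lists of changed genes in these birds. Neither the direction of these genes, nor their medians, nor the number that passed in any region is therefore independent evidence. The share of all genes that passed is given beside the counts, but it is no yardstick for genes chosen this way. In the BnST 4 of the 7 immediate early genes fell after sensitization and none rose, where 0.0556% of all genes tested passed, with a median log2 difference of −0.59 over the 7, where all genes tested had 0.004. These were FOS (−0.65, edgeR, adjusted p = 0.00229), KLF2 (−0.40, edgeR, adjusted p = 1.23e-04), NPAS4 (−0.90, edgeR, adjusted p = 0.0167) and BTG2 (−0.59, edgeR, adjusted p = 0.0323). SIK1, a kinase that restrains CREB coactivators, and RRAD fell there too (−0.38 and −0.56, edgeR, adjusted p = 0.0323 and 0.0241). The BnST value of EGR4, −0.97, was thus near that of NPAS4.

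In the hypothalamus 1 of the 7 passed between treatments, BTG2 (−0.36, edgeR, adjusted p = 0.0142), where 0.0207% of all genes passed, and 4 of 7 fell in R against NS birds, where 0.0721% did: FOS (−0.57, edgeR, adjusted p = 2.97e-05), BTG2 (−0.53, edgeR, adjusted p = 1.84e-05), NPAS4 (−0.85, edgeR, adjusted p = 0.00226) and FOSB (−0.66, edgeR, adjusted p = 0.0228). The median of the 7 in R minus NS was −0.53, again for genes paired because the study listed them as changed. In the Tn none of the 7 passed in either comparison, and their medians were −0.14 for treatment and −0.14 for R minus NS.

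Genes that set the regions apart were also read in each library, as a list of 100 genes high in the hypothalamus relative to the BnST and a list of 100 genes of the opposite kind, the named genes left out. In the hypothalamus the mean log2 CPM of the hypothalamus-high list had a median of 3.29 in sensitized and 3.08 in control birds, and EGR1 fell along it (r = −0.512, rho = −0.533, permutation p = 2.5e-04, adjusted over 12 relations p = 0.00100, and r = −0.499 without the 2 farthest birds). The values for EGR4 there were lower (r = −0.244, rho = −0.243, permutation p = 0.0936, adjusted p = 0.187). In the BnST the list had medians of 1.01 in sensitized and 1.04 in control birds, and both genes fell along it, EGR1 with r = −0.744 (rho −0.681, permutation p = 1e-05, the smallest possible) and EGR4 with r = −0.573 (rho −0.537, permutation p = 2e-05), each with an adjusted p of 1.2e-04. Without the 2 farthest birds these were −0.698 and −0.525. In the Tn r with this list was −0.35 for EGR4 (rho −0.366, permutation p = 0.0148, adjusted p = 0.0445). For EGR1 it was −0.326 there (rho −0.443, permutation p = 0.0228, adjusted p = 0.0548). Both genes are themselves lower in the hypothalamus. The BnST-high list had medians of 3.26 in sensitized and 2.73 in control birds in the BnST, and r with it was 0.174 for EGR1 (rho 0.164, permutation p = 0.236, adjusted p = 0.404, 0.113 without the 2 farthest birds) and 0.0988 for EGR4 (rho 0.0979, permutation p = 0.503, adjusted p = 0.604, 0.0115 without them).

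With the means of both lists as covariates, a choice made after seeing the data, the EGR4 difference between treatments in the BnST was −1 (edgeR, adjusted p = 3.47e-06) and R minus NS there passed at −1.15 (edgeR, adjusted p = 3.56e-05), as did R minus S at −1.12 (edgeR, adjusted p = 0.0361). In the hypothalamus R minus NS was −1 for EGR4 (edgeR, adjusted p = 0.00130) and −0.37 for EGR1 (edgeR, adjusted p = 0.00360) with the same covariates. The treatment difference of EGR1 was −0.24 for hypothalamus and −0.37 for BnST libraries, and neither passed (edgeR, adjusted p = 0.719 and 0.125). That of EGR4 for hypothalamus libraries was −0.60 and did not pass either (edgeR, adjusted p = 0.719 with the lists and 0.196 without them).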

How the data were processed

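Per the labels, 3 regions of 48 quail brains were sequenced. The authors mapped the reads with HISAT2 to Coturnix_japonica_2.0 and deposited raw HTSeq counts per gene as one table. Base calling used CASAVA 1.8.2 per the submitters' processing notes. The strand setting of the counting is not given in the sources used here, so reads of a gene and of an antisense partner cannot be told apart. In the RefSeq annotation no other gene overlaps EGR1 or EGR4. From the deposited counts, edgeR 4.0.16 in R 4.3.3 fitted quasi-likelihood models with TMM scaling after filterByExpr (minimum count 10, minimum total 15). P-values were adjusted by Benjamini-Hochberg over all genes tested, with 0.05 as the threshold. CPM used TMM factors over all 144 libraries, and log2 CPM a prior count of 2. Ratios and correlations were tested by permutation in Python 3.11.15. The alternatives were DESeq2 1.42.0, limma 3.58.1, RLE factors, no filter, covariates and left-out birds. The edgeR fit was tested on simulated data. The title number pairs the libraries of one bird, and sex, treatment and class agree over its 3 libraries in all 48 birds. No pair of libraries of the same region held identical values. P-values measure the spread between birds, except in the main edgeR models over all regions, which took the libraries of one bird as independent.

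EGR1 and EGR4, the gene lists and the comparisons were chosen with earlier results of these data known. Genes named are the pair, list members, and the 5 genes of highest r with each of the pair per region, where a symbol was known. Symbols came from the study's tables for 21 identifiers. No sequences were used here.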

Additional observations from a re-analysis of the deposited data

Results flagged for a closer look

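Within the groups of 4 to 10 birds of one sex and class, 3 of 30 sets of values had one bird far from the rest by Dixon's criterion, where chance gives about 1 in 20. EGR4 in the hypothalamus of male R birds was 32.9 CPM in bird 46, and the other 8 males ran from 6.48 to 15.6 CPM. EGR1 in the Tn of male NS birds was 605 CPM in bird 12, and the other 6 ran from 199.7 to 362 CPM. EGR4 in the same library was 69.6 CPM, and the others ran from 20.5 to 36.2 CPM.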

How the results depend on the processing

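Of 980 values of 105 results under another setting, 946 kept their direction and their side of the threshold, 9 came to pass it, 7 no longer passed it and 18 changed sign. R minus NS in the hypothalamus kept both calls in all 14 settings (EGR4 −1.07 to −0.94, EGR1 −0.45 to −0.37). Some of these settings left out a single S bird, which is in neither class, and so could hardly move this contrast. EGR4 in the BnST kept its treatment call in all 10 (−1.01 to −0.94), and all 6 region differences kept theirs. Where a call changed, the cause was not tested.

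The calls gained between treatments were those of DESeq2 in the hypothalamus (EGR1 −0.32, EGR4 −0.64) and of limma-voom there (EGR4 −0.72). For the response classes they were EGR4 R or S minus NR or NS in the hypothalamus with DESeq2 (−0.68), the same without treatment as a covariate (EGR1 −0.34, EGR4 −0.87), EGR4 R minus NS in the BnST with DESeq2 (−1.04) and with the region lists as covariates (−1.15), and EGR4 R minus S in the BnST with these lists (−1.12).

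The calls lost were the EGR4 over EGR1 ratio by class in the Tn with the region lists removed (−0.16), and 6 correlations between regions. These were EGR4 hypothalamus with BnST without bird 49 (0.286) and with RLE factors, added after seeing the data (0.292), EGR1 hypothalamus with Tn without the 2 farthest birds (0.298) and with the lists removed (0.2), and, with the means of sex and treatment removed, EGR1 hypothalamus with BnST (0.251) and EGR4 hypothalamus with Tn (0.307). EGR4 hypothalamus with BnST then turned to −0.024.

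The other signs that turned were of differences that passed in neither setting. They were males minus females in the hypothalamus (EGR4 0.11 with the number run as a covariate, EGR1 −0.0111 without treatment) and in the BnST (EGR4 −0.0856 without treatment), the EGR1 treatment difference in the Tn (−0.0354 with sex, −0.0292 with the number run and −0.0495 with the lists as covariates), EGR1 R minus S in the Tn (−0.052 with sex and −0.0208 with the lists), EGR1 NR minus NS in the hypothalamus (0.0275 with the lists) and EGR4 S minus NS in the BnST (−0.0325 with the lists). Leaving out each of the 5 S birds in turn moved the class contrast of EGR4 in the hypothalamus between −0.26 and 0.00638, EGR1 S minus NS in the hypothalamus between −0.15 and 0.0185, EGR4 S minus NS between −0.24 and 0.31 in the BnST and between −0.25 and 0.00107 in the Tn, and EGR1 R minus S in the Tn between −0.0112 and 0.11.

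The bird as a replicate block changed no call between regions (EGR1 −1 and EGR4 −1.40 for hypothalamus minus BnST). With this pairing the EGR1 treatment difference in the hypothalamus minus that in the BnST turned to 0.0221 in edgeR and to 0.00445 in limma-voom with the bird as a random block.

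The number of genes called between treatments was 3 in the hypothalamus, 9 with DESeq2 and 5 with limma-voom, and with the lists as covariates it was 16 in the BnST, where edgeR alone called 8, and 1 in the Tn, where it called 0. For R minus NS it was 2 in the BnST, 4 with DESeq2, 10 with the lists and 1 without birds 17 and 49, and in the Tn it was 0 and 3 with DESeq2. The S and NR classes hold 5 and 6 birds, which limits every contrast with them.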
